A study of Mus musculus with 3 samples.

Results

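The genes that carry the signal of leukemia inhibitory factor (LIF) and interleukin 6 (IL6) to the transcription factor STAT3 were followed in mouse blastocysts of young females, of aging females and of aging females whose CXCL5-CXCR2 signaling was suppressed in culture. They are 9 genes, Lif, Il6, Lifr, Il6ra, Il6st, Jak1, Jak2, Stat3 and Socs3, and every probe whose RefSeq transcript maps to one of these symbols was taken, whatever its value. This gave 16 of the 56591 probes with a value on all 3 arrays. The scanner software called 14 of them well above background on all 3 arrays and the other 2 on none, and each of the 9 genes had at least 1 probe above background on every array.

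LIF and IL6 are cytokines that act through receptors sharing 1 signaling chain, gp130, which is encoded by Il6st. LIF binds the receptor chain encoded by Lifr, IL6 binds the one encoded by Il6ra, and the kinases JAK1 and JAK2 on the cytoplasmic tails then phosphorylate STAT3, which moves to the nucleus and activates its targets. One of these targets, Socs3, encodes an inhibitor that binds gp130 and the kinases and so closes a feedback loop. In the mouse, LIF from the uterus is required for implantation, and LIF keeps embryonic stem cells, which derive from the inner cell mass, in the pluripotent state through STAT3.

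All embryos came from superovulated ICR females mated with males. Zygotes were flushed from the oviducts 18 h after hCG and cultured for 96 h in KSOM medium, and 30 expanded blastocysts were pooled per condition. The young females were 3 to 6 weeks of age and their embryos were untreated. The untreated aging embryos came from females of 43 to 53 weeks, and the suppressed aging embryos came from females of the same ages and were cultured with a neutralizing antibody against the chemokine CXCL5 (10 μg/ml) together with a selective antagonist of its receptor CXCR2 (10 nM), so the separate part of each agent is not measured. A pool of whole blastocysts mixes trophectoderm, epiblast and primitive endoderm, and the embryos lacked contact with the uterus, the main source of LIF in vivo.

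Each condition was 1 pool on 1 array, and all 3 arrays were read on 1 slide in 1 scan. There is no spread between pools, no test and no P-value, and the comparisons share arrays. Levels below are log2 intensities after subtraction of the 75th percentile of the array, so that 0 is the level of that percentile (an intensity of 145, 155 and 122 on the young, aging and suppressed aging arrays). A difference is a difference of such levels. The error printed with it is the SD that the scanner software gave for the 2 spot intensities, which covers the reading of the array and not the choice of embryos. For bright probes this SD was a fixed floor and not a spread seen in those spots. It was the same 0.20 for a bright Stat3 probe and for Actb in each comparison, and no member probe had a lower value. The detection limit, the lowest level among probes above background, was -4.20, -4.32 and -3.93 on the young, aging and suppressed aging arrays. Levels of different probes are not set against each other, because probes differ in how well they bind.

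Markers of the 3 blastocyst lineages were present on every array. All 7 trophectoderm, 6 epiblast and 5 primitive endoderm genes listed were above background on all 3. Of 8 cumulus and granulosa cell markers, Inha, Inhba, Fshr and Has2 were not above background on any array, and neither were Ptprc, Adgre1, Lyz2 and Hbb-bt of 7 markers of blood and macrophages. The other 4 cumulus and granulosa markers, Foxl2, Cyp19a1, Amh and Ptgs2, and the other 3 of blood and macrophages, Csf1r, Cd68 and Hba-a1, were above background on all arrays. The summed level of the former ranged from 8.55 to 8.78 over the arrays, most of it Foxl2 (8.54 to 8.77), and that of the latter from 4.35 to 4.59, most of it Csf1r (4.03 to 4.39). Within the blood and macrophage list, Hba-a1 was at -1.69 in suppressed aging against aging and Cd68 at -1.49 in suppressed aging against young. Of 5 oviduct and uterine markers, 1, 1 and 2 were above background on the young, aging and suppressed aging arrays. Differences over 2-fold were common between single arrays. In aging against young blastocysts, 21.1% of 35758 comparable probes differed over 2-fold, against 19.0% of 34752 in suppressed aging against aging and 18.1% of 34959 in suppressed aging against young. The share depended on the level, and for aging against young it was 24.1% in the dimmest 25% of the probes above background on both arrays and 5.23% in the brightest 25%.

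**Figure D1:**
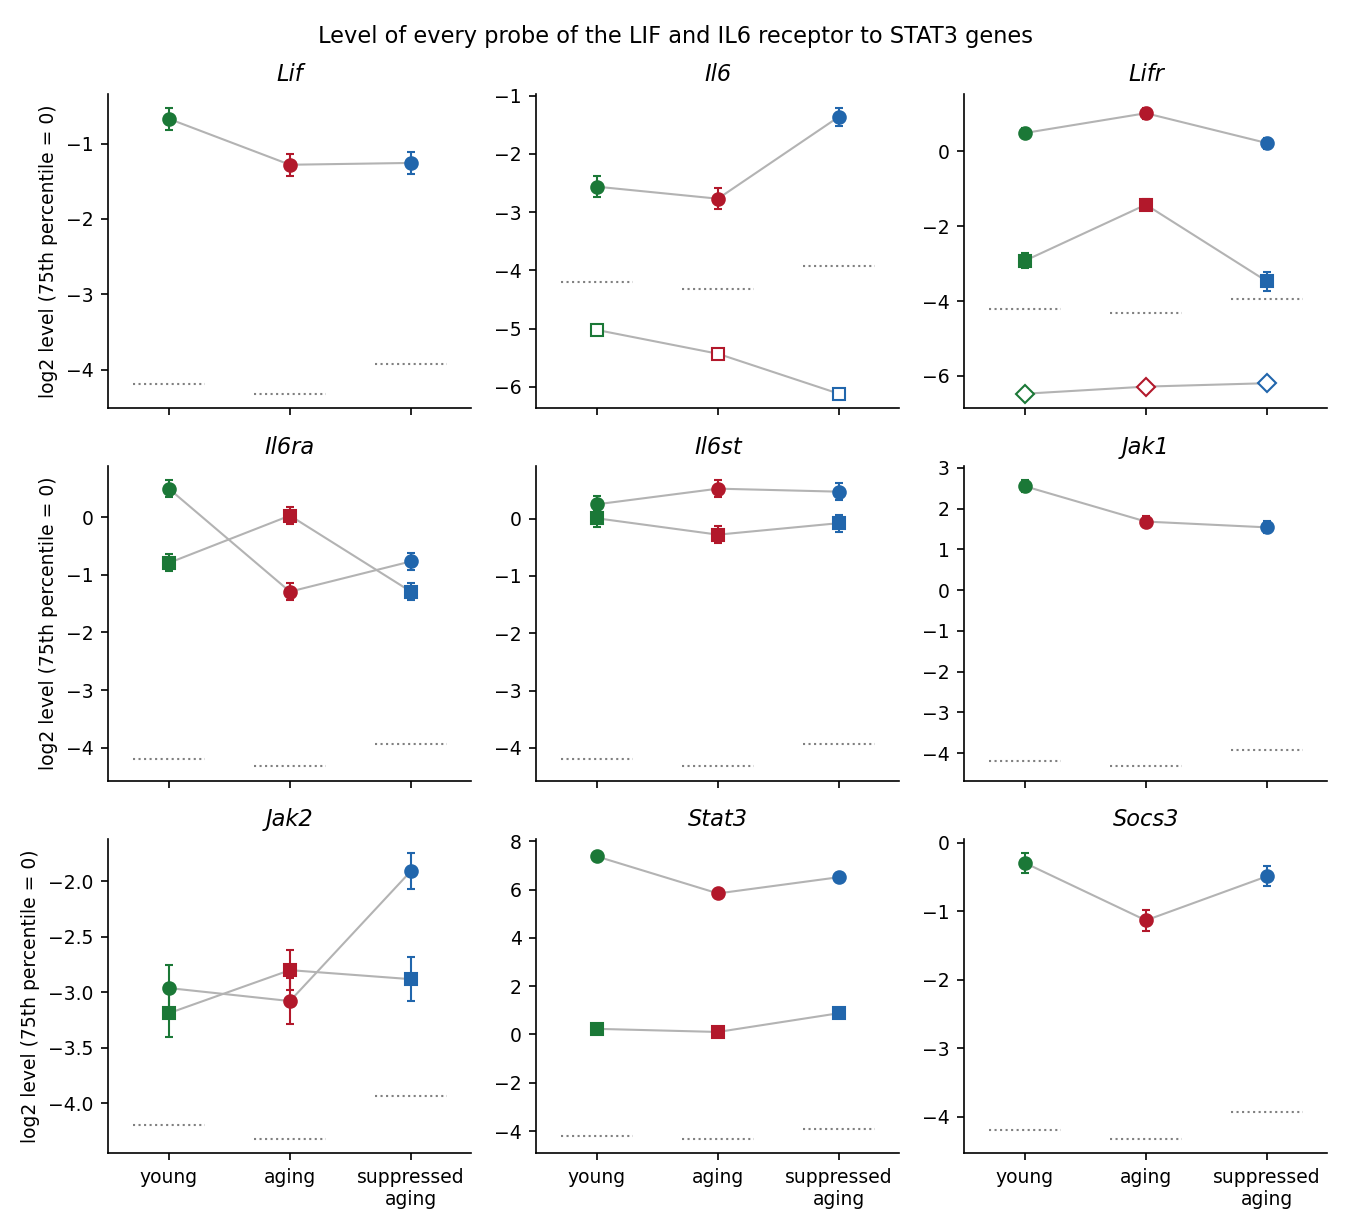
Log2 level (vertical axis, 0 is the 75th percentile of the array, each panel with its own scale) of every probe of the 9 genes on the young, aging and suppressed aging arrays. Circles are the probe of each gene with the highest mean level, squares and diamonds the others, open symbols are not above background, bars are the scanner error (1 SD), and dotted lines are the detection limits; the first Stat3 probe lies at 7.37, 5.84 and 6.51.

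Stat3, the transcription factor at the end of the pathway, was measured by a pair of probes, of which 1 differed over 2-fold between aging and young blastocysts. The first, A_51_P201480, had intensities of 23961 (young), 8838 (aging) and 11152 (suppressed aging), which are levels of 7.37, 5.84 and 6.51. It was 2.89-fold lower in aging than in young blastocysts (log2 difference -1.53 ± 0.20), and the suppressed aging pool lay between the others, 0.67 ± 0.20 above the aging and -0.86 ± 0.20 against the young array. This probe is among the brightest 25%, of which 5.23% differed over 2-fold in this comparison. The second Stat3 probe, A_55_P1991219, is assigned to another RefSeq transcript than the first. Whether both read the same RNA was not tested. The second probe was at 0.23 in young, 0.10 in aging and 0.88 in suppressed aging blastocysts. Its difference of -0.13 ± 0.21 between aging and young blastocysts was smaller than the scanner error. Both Stat3 probes were higher in suppressed aging than in aging blastocysts, by 0.67 and 0.78, whereas against the young array the first was lower (-0.86) and the second higher (0.65). In a bulk pool, fewer cells expressing a gene and less RNA per cell cannot be told apart.

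Socs3, the feedback inhibitor and STAT3 target, was read by 1 probe. Its order, young above suppressed aging above aging, was that of the first Stat3 probe but not of the second. The Lif probe, the first Il6ra probe and the second Il6st probe had this order too, so it is not particular to Stat3 and Socs3. The Socs3 level was -0.30 in young, -1.13 in aging and -0.49 in suppressed aging blastocysts. The level was 1.79-fold lower in aging than in young blastocysts (-0.84 ± 0.21) and 1.56-fold higher after suppression than in untreated aging blastocysts (0.64 ± 0.21). Suppressed aging and young blastocysts differed by -0.20 ± 0.21, within the scanner error. None of these differences passed 2-fold.

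Since STAT proteins bind the palindrome TTCNNNGAA (N is any base), the promoters of the 9 genes were searched for it. The windows ran from 250 bases before to 50 after each RefSeq transcript start, of which 10 were given for the 9 genes in GRCm38.p6. Only the Socs3 window held the motif, at chr11:117969317-117969616 on the minus strand. It is shown 5′ to 3′ with the match in capitals, which lies 154 to 146 bases before the start.
Socs3 promoter: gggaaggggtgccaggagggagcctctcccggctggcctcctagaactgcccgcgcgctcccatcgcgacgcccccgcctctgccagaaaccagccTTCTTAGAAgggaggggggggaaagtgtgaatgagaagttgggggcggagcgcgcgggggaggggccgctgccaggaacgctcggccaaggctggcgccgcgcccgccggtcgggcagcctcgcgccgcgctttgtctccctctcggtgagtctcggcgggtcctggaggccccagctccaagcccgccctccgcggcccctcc
Among all 32851 RefSeq windows of the same length, 2726 (8.30%) held TTCNNNGAA. The same palindrome with 1 more base in its middle was in none of the 10 windows and in 6.95% of all windows. Each motif reads the same on both strands, and a match is a stretch of letters in these windows and was not measured as a bound site.

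The ligands differed from each other. Lif, read by 1 probe, was at -0.67 in young, -1.28 in aging and -1.26 in suppressed aging blastocysts. The young pool was the highest and the aging pools did not differ beyond the scanner error (0.02 ± 0.21), so both were lower than the young one by a similar amount (-0.61 and -0.59). Il6 was near the lower end of what could be measured, with intensities of 24.5, 22.7 and 47.6 after background subtraction. The median local background, a value from before that subtraction, was 39, 39 and 29. The Il6 probe was above background on all 3 arrays, and lay 1.63, 1.55 and 2.57 above the detection limits. Its levels were -2.56, -2.77 and -1.36, and only the suppressed aging pool stood apart, 2.65-fold above the aging (1.41 ± 0.24) and 2.30-fold above the young array (1.20 ± 0.23). Normexp background correction, an alternative to the subtraction done by the scanner software, adds an offset of 50 to every intensity, which shrinks differences of dim probes. With it, the 2 differences were 0.59 and 0.50, and Il6 was no longer past 2-fold. The second Il6 probe was not well above background on any array, so it gives no reading of the difference.

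Lifr, the LIF receptor chain, was highest in aging blastocysts on both measured probes. The first probe, A_55_P2159259, was at 0.49, 1.02 and 0.22 in young, aging and suppressed aging blastocysts, which puts aging above young by 0.53 ± 0.20 and suppressed aging at -0.80 ± 0.20 against aging. The second, A_55_P2827477, was at -2.92, -1.42 and -3.47. Its aging level was 2.82-fold above the young level (1.50 ± 0.25) and 4.13-fold above the suppressed aging level (-2.05 ± 0.29), the largest difference of any member probe, but on the suppressed aging array it was close to the detection limit. Normexp correction left the direction of these 2 differences and reduced them to 0.52 and -0.41. It turned the difference of the second probe between suppressed aging and young blastocysts from -0.55 to 0.11. The remaining Lifr probe, designed on another transcript, was not above background on any array.

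Il6ra, the IL6-binding chain, gave opposite orders on its probes. The first, A_55_P2068892, was at 0.49 in young, -1.29 in aging and -0.77 in suppressed aging blastocysts. It was 3.45-fold lower in aging than in young blastocysts (-1.78 ± 0.21), the largest difference among the member probes for this comparison, and 2.40-fold lower in suppressed aging than in young blastocysts (-1.26 ± 0.21). The second, A_51_P415855, was at -0.79, 0.03 and -1.29, so that the aging array was the highest instead of the lowest. On this probe aging was above young by 0.82 ± 0.21 and suppressed aging below aging by -1.32 ± 0.21, or 2.49-fold. Both probes agree in direction only for suppressed aging against young (-1.26 and -0.50). With normexp correction the 4 differences that involve the aging array kept their signs, and only the first probe in aging against young stayed past 2-fold, at -1.20.

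Il6st, the shared gp130 chain, differed little between the arrays. Its first probe, A_51_P473888, was at 0.25, 0.52 and 0.47, and its second at 0.01, -0.28 and -0.08, in young, aging and suppressed aging blastocysts. Over the 3 comparisons the differences of both probes ran from -0.29 to 0.27, and the largest was 1.39 times its scanner error. The directions of the probes were opposite in each comparison, and normexp correction turned the smallest difference of the second probe from -0.08 to 0.04.

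The kinases also went separate ways. Jak1, with 1 probe, was at 2.55 in young, 1.68 in aging and 1.54 in suppressed aging blastocysts. The young pool was highest, 1.82-fold above aging (-0.87 ± 0.20) and 2.01-fold above suppressed aging (-1.01 ± 0.20), and the aging pools differed by less than the scanner error (-0.14 ± 0.20). Jak1 and Lif were thus the members in which both aging pools were lower than the young one and alike in level. Jak1 was only just past 2-fold, and it was -0.82 with normexp correction. Jak2 was dim on both probes, with intensities of 18.6, 18.3 and 32.6 on the first, A_66_P106863. This probe was at -2.96, -3.08 and -1.91, so that suppressed aging was 2.25-fold above aging (1.17 ± 0.27) and 2.08-fold above young (1.05 ± 0.27). The second, A_52_P309376, was at -3.19, -2.80 and -2.88 and did not show this, with differences of -0.08 ± 0.27 and 0.31 ± 0.30. Normexp correction took the differences of the first Jak2 probe to 0.49 and 0.47.

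**Figure D2:**
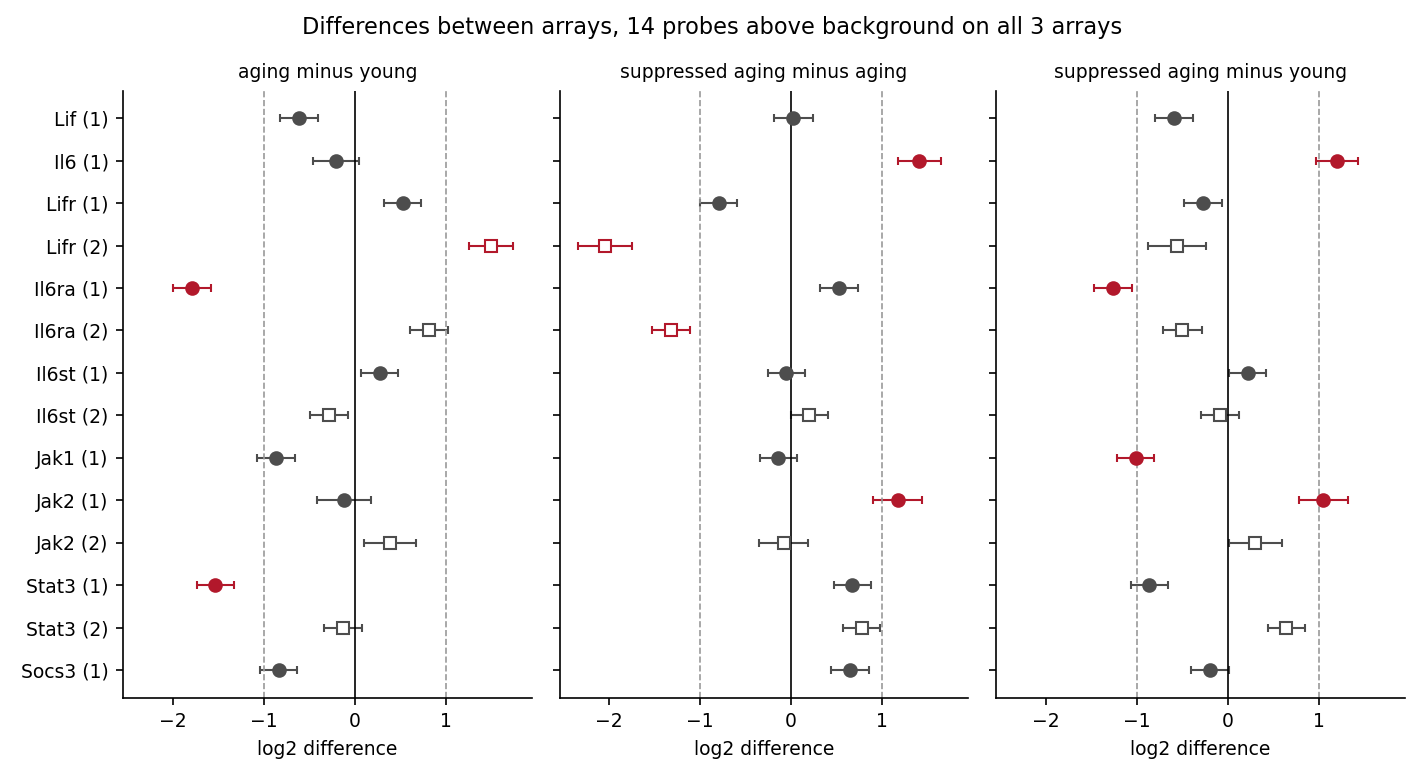
Log2 differences (horizontal axes) between pairs of arrays for the 14 probes above background on all 3 arrays, where (1) is the probe of each gene with the highest mean level (filled circles) and (2) the other measured probe (open squares). Bars are the scanner error (1 SD), dashed lines mark 2-fold, and red marks differences past it: 3 probes for aging minus young and 4 for each of the others.

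Counted by the probe with the highest mean level per gene, 2 of the 9 genes (Il6ra and Stat3, both lower) differed over 2-fold in aging against young blastocysts, where 21.1% of all probes did, 9.98% higher and 11.1% lower. The median of the 9 differences was -0.61, against -0.03 over all probes, and 7 of the 9 were lower. It depended on the probe taken. Over all 14 measured member probes the median was -0.17, with 9 lower and 5 higher, and with the mean over the probes of each gene it was -0.48. In suppressed aging against aging blastocysts, Il6 and Jak2 were over 2-fold higher, which is 2 of 9 beside 19.0% of all probes, 9.86% higher and 9.10% lower. The median was 0.52, against 0.02, with 6 genes higher, and over the 14 measured probes it was 0.11, with 8 higher and 6 lower. In suppressed aging against young blastocysts, 4 of 9 were past 2-fold, Il6 and Jak2 higher and Il6ra and Jak1 lower, beside 18.1% of all probes (8.88% higher and 9.19% lower), and the median was -0.27. The first 2 counts are near the share of all probes, although they leave out the dimmer probes of each gene, which that share includes. No member differed over 5-fold in any comparison, where 3.00%, 2.55% and 2.51% of all probes did. With the mean over the probes of each gene, neither Il6ra (-0.48) nor Stat3 (-0.83) was past 2-fold in aging against young blastocysts, and the 1 gene that was past it was Lifr, which was higher (1.01). By the same mean, Jak2 was not past 2-fold in either comparison of suppressed aging (0.54 against aging and 0.68 against young), Il6ra was not against young (-0.88), and Lifr was past it against aging (-1.42). With normexp correction the counts for both comparisons of suppressed aging were 0. The other measured probes added Lifr in aging against young (higher), and Lifr and Il6ra after suppression against untreated aging (both lower).

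In 5 of the 9 genes a pair of probes was above background on all arrays, which allows the reading of a gene to be checked. The pairs of Lifr, Il6ra, Il6st and Jak2 are each assigned to the same RefSeq transcript, but that of Stat3 to different ones. The probes had the same sign in Lifr and Stat3 both for aging against young and for suppressed against untreated aging (2 of 5 genes each), and in 3 genes, Lifr, Il6ra and Jak2, for suppressed aging against young. In no gene and no comparison were both probes past 2-fold in the same direction. The median gap between the pair was 0.97, 1.25 and 0.75 in these comparisons. Over all 4679 genes with such pairs, the median gap was 0.54, 0.52 and 0.47, and the shares with the same sign were 57.0%, 54.6% and 56.2%. Where the brighter probe was past 2-fold for aging against young, the other was past 2-fold in the same direction in 19.9% of 637 genes, so a fold change read from 1 probe was often not repeated by another of the gene.

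**Figure D3:**
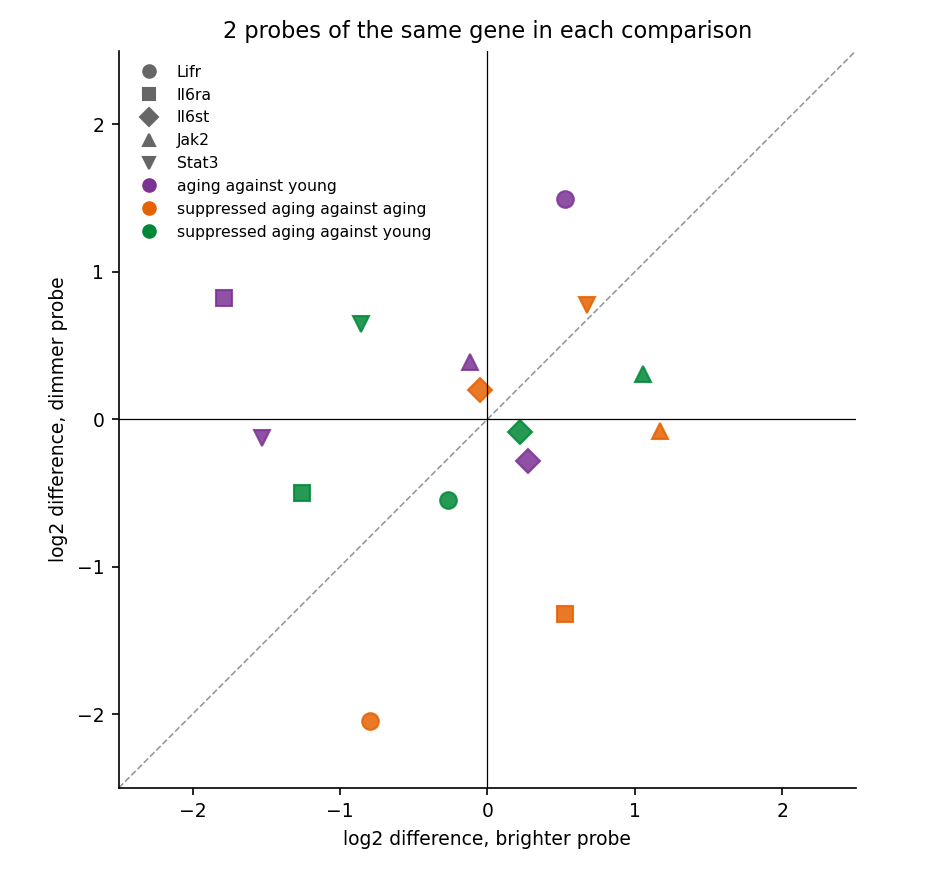
Log2 difference of the brighter probe (horizontal axis) against that of the other probe (vertical axis) for Lifr, Il6ra, Il6st, Jak2 and Stat3 in the 3 comparisons (colours). Points on the dashed line have equal differences; Il6ra lies far from it for aging against young, at -1.78 and 0.82.

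Levels that run like those of a member over 3 arrays are easily found, since such a pattern is only 2 differences. Within a distance of 0.2 from the first Stat3 probe there were 92 of 28787 probes (0.320%), the nearest being of Ggnbp1, Kcnj13 and Evpl. For Lifr there were 476 (1.65%), nearest Cdk2ap2, Ctdsp1 and Gga3. For Il6st, whose differences were close to 0, there were 1979 (6.87%), nearest Eea1, Spink11 and Mex3c. Likeness over so few values says nothing about function.

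Other genes of the pathway were described from 48 genes in 5 lists. Of these, 37 were above background on all 3 arrays by their probe with the highest mean level and 7 on none. The 7 were the cytokines Ctf1, Ctf2, Il11 and Ebi3, the receptor chains Osmr and Il27ra, and Stat4. In aging against young blastocysts 41 could be compared, of which 27 were higher and 14 lower, and 5 were over 2-fold higher and 3 lower. In suppressed aging against aging 23 of 39 were higher and 3 were past 2-fold, and in suppressed aging against young 28 of 40 were higher and 6 were past 2-fold. The shares past 2-fold, 19.5%, 7.69% and 15%, were all below those of all probes, and with normexp correction the count for aging against young was 1. These shares leave out the dimmer probes of each gene, whereas those of all probes include them, so they are not alike. Over all comparable probes of the pathway genes, the shares were 18.5%, 8.06% and 14.3%. The medians by the probe with the highest mean level were 0.14, 0.15 and 0.28.

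Among the other gp130 cytokines, 4 of 8 could be compared for aging against young, and all of those past 2-fold were at or near the detection limit. Osm, encoding oncostatin M, was above background on the aging array alone, on 1 probe, and was at least 1.05 higher there than on the young array. The scanner error of this difference, 1.46, was larger than the bound. The other Osm probe was not above background on any array. Cntf, a neurotrophic cytokine, was not above background on the aging array, which puts aging at -1.07 or lower against young and suppressed aging at least 1.40 above aging. Clcf1, a cytokine that signals through the CNTF receptor, was lower in aging than in young blastocysts (-1.21).

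Of the other kinases and STATs, Tyk2, a JAK family kinase that also acts at gp130, had the steepest pattern. Its 1 probe was at -3.69 in young, -2.30 in aging and -0.18 in suppressed aging blastocysts, so each step was past 2-fold (1.39 and 2.11) and suppressed aging was above young by 3.51, over 5-fold. The young level lay close to the detection limit of that array (-4.20), with a scanner error of 0.31 for aging against young. The size of the differences from young thus rests on a dim reading. Jak3, which signals from receptors of the common gamma chain, was higher in suppressed aging than in young blastocysts on 1 probe (1.10) and not on the other (0.23). The differences of Stat6, which has 1 probe, ran from -0.14 to 0.34. Those of the first Stat5a probe ran from -0.04 to 0.18, whereas its other probe was 0.76 higher in aging than in young blastocysts and at -0.97 in suppressed aging against aging.

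All 15 negative regulators were above background on every array. By the probe with the highest mean level, none was past 2-fold in aging against young blastocysts, and the median was 0.08. The other probe of Socs4 was not above background on the aging array alone, at -1.86 or lower for aging against young and at least 2.01 higher after suppression than in untreated aging blastocysts, while its first probe differed by -0.01 and 0.05. Cish, a SOCS family gene induced by STAT5, was at 2.45 in young, 1.49 in aging and 1.26 in suppressed aging blastocysts, so that it was lower in both aging pools (-0.96 and -1.18). Socs6 was higher in suppressed aging than in young blastocysts (1.23), with 0.22 on its other probe. Pias1, a SUMO ligase, had the largest difference of the pathway, 4.74 for suppressed aging against aging on 1 probe, whose levels were -1.81, -2.47 and 2.27. The other Pias1 probe showed 0.31.

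STAT3 targets of pluripotent cells differed little as a list. Of 12 measured targets, 10 were higher and 2 lower in aging against young blastocysts, with a median of 0.19, where 48.2% of all probes were higher. Of the 12 targets, 5 were higher and 2 lower by more than the scanner error, and 2 passed 2-fold. In suppressed aging against aging 4 of 11 were higher, with a median of -0.18 and none past 2-fold. Pim1, a survival kinase, was at -0.26 in young, 1.04 in aging and 0.52 in suppressed aging blastocysts (1.31 for aging against young). Myc, a proliferation factor, was higher in both aging pools than in the young one on its first probe (1.14 and 1.49), and its second probe differed by 0.21 and -0.10. Tfcp2l1 and Klf4, factors of naive pluripotency, differed between aging and young blastocysts by 0.64 and 0.36. Bcl2l1, which encodes the survival protein BCL-XL, had 5 probes, and all 5 were higher in aging than in young blastocysts, by 0.38 to 1.11.

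**Figure D4:**
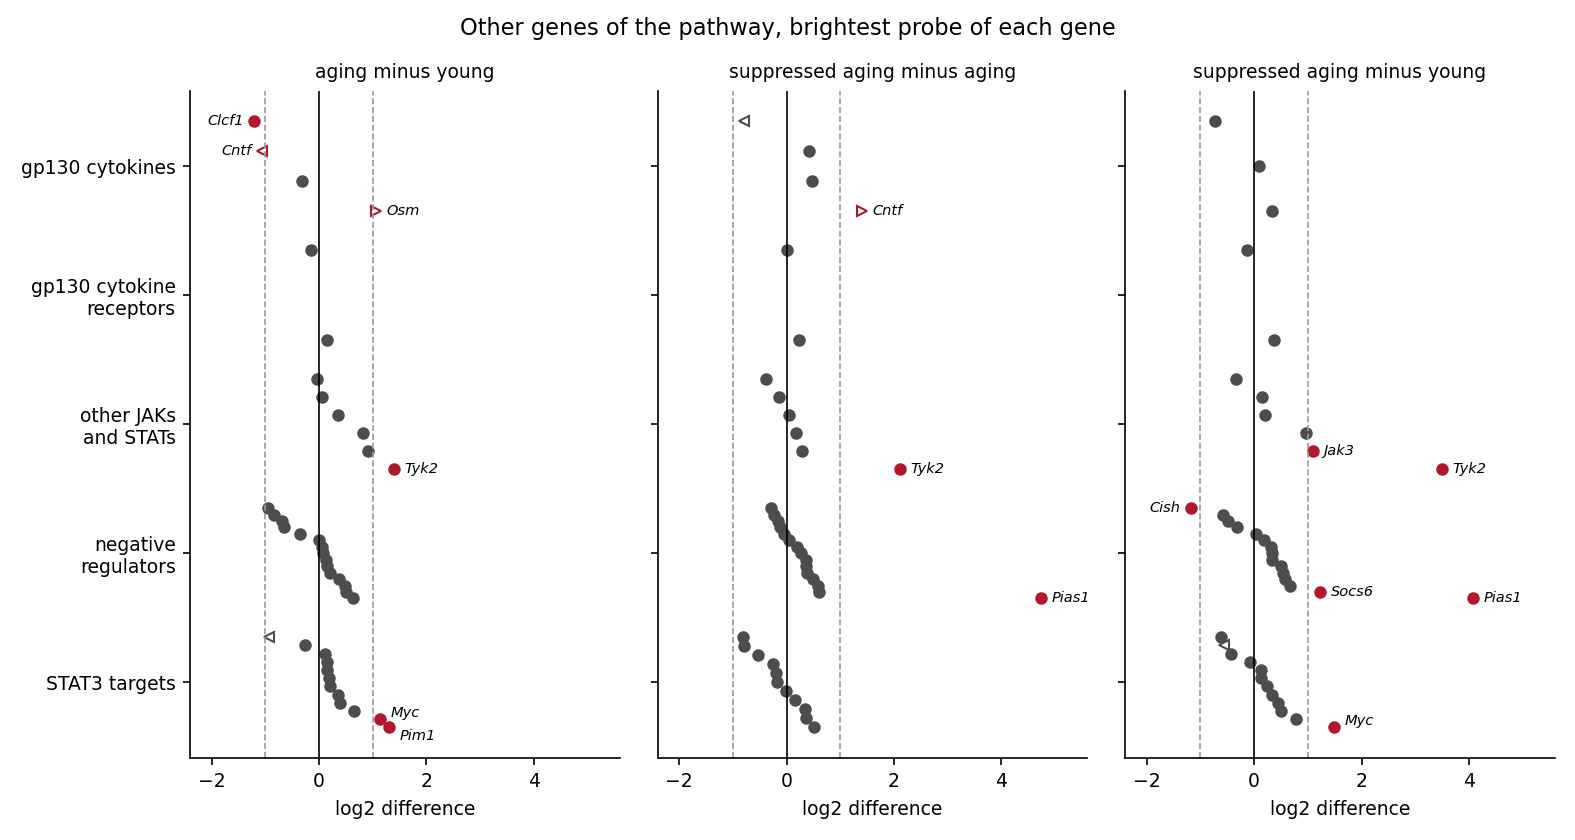
Log2 differences (horizontal axes) of the other pathway genes in 3 comparisons, by the probe with the highest mean level and grouped in 5 lists, for the genes reported here (vertical axis; the order within a list is that of the difference). Dashed lines mark 2-fold, names and red mark genes past it, and open triangles are bounds where 1 of the 2 arrays was not above background; the largest are Pias1 and Tyk2 after suppression.

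Lineage markers moved between the same arrays. The 6 epiblast markers had a median of 0.72 in aging against young blastocysts, with Sox2 at 1.37, Fgf4 at 1.12 and Esrrb at 1.11. Pou5f1 (0.34) and Zfp42 (-0.0007) moved less, and Nanog was at 0.26 on its first probe and 1.02 on its other. The 7 trophectoderm markers had a median of -0.19, with 2 higher and 5 lower. Tfap2c was at -1.16 on its first probe and 0.08 on its other, whereas Elf5 was at 0.91 and Krt8 at 0.01. In suppressed aging against aging the epiblast and trophectoderm medians were -0.16 and 0.21, with Elf5 at -0.58. The 5 primitive endoderm markers had medians of 0.36 and -0.69, with Pdgfra at 1.28 in aging against young and Sox17 at -1.53 on its first probe and 0.33 on its other. The summed level per array ran from 10.02 to 10.28 for the epiblast list, most of it Nanog (9.88 to 10.14). It ran from 8.55 to 8.95 for the trophectoderm, with Krt18 (7.52 to 8.05) the largest part, and from 4.02 to 4.29 for the primitive endoderm list. The part of the lineage markers in the differences of the member genes was not tested.

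**Figure D5:**
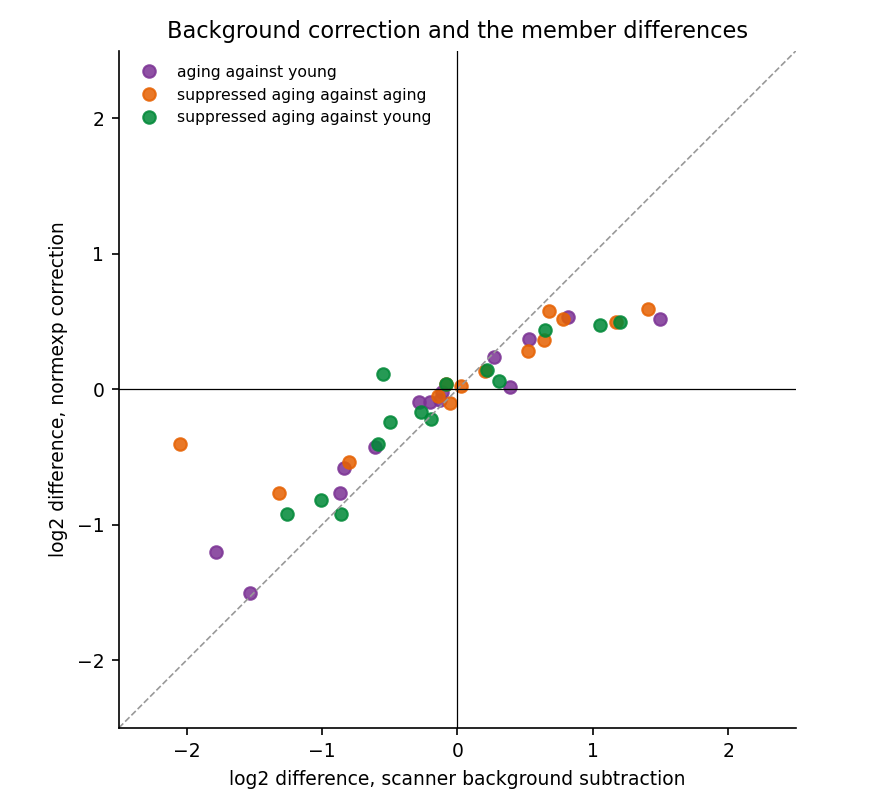
The 42 log2 differences of the 14 member probes (3 comparisons, colours) with the background subtraction of the scanner software (horizontal axis) and with normexp correction (vertical axis). Points between the dashed line of equality and the horizontal line at 0 are differences that shrank; the second Lifr probe moved most, from -2.05 to -0.41, and the first Stat3 probe in aging against young stayed at -1.50.

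The differences of dim probes were smaller with normexp correction than with the subtraction, as the plot of both shows. Normexp correction was run with an offset of 50 added to every intensity. That offset alone shrinks the log2 difference of a dim probe, whatever the data, and hardly moves that of a bright probe. The shrinkage therefore cannot tell whether the difference of a dim probe is real. Of the 11 member differences past 2-fold, all kept their sign with normexp correction and 2 stayed past 2-fold, those of the first Stat3 probe and the first Il6ra probe in aging against young blastocysts. Quantile normalization, centring on the median or on housekeeping genes, and the authors' processed values left all 11 past 2-fold. The centrings and the authors' values move all probes of an array by 1 constant. Their largest shifts of a member difference were 0.01, 0.04 and 0.09, so they could change only calls close to 2-fold. With 1 pool per condition, these checks cover the processing of the arrays and not the variation between embryos.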

How the data were processed

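RNA of 1 pool of 30 blastocysts per condition was hybridised to 1-colour (Cy3) Agilent mouse arrays. The authors deposited linear spot intensities from Feature Extraction 12.0.3.1, which had subtracted background and spatial trend within each array, with arrays not normalized against each other, and a table of these intensities multiplied by 1 factor per array. The methods of the study describe a single-primer PCR amplification and the labels a cRNA labelling kit, and which of them was applied is not visible in the files. Amplification from few cells can alter the proportions of transcripts, which was not tested.

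Control spots and outlier spots (85 to 118 per array) were left out, no spot was saturated, log2 intensities of a probe's spots were averaged, and each array was centred on its 75th percentile. Probes were named through RefSeq transcripts in a table of GRCm38.p6 (33759 probes, 23458 genes). The array names an older build, so no probe coordinates are given, and the Socs3 promoter window is placed in GRCm38.p6. Where a gene had several probes, the one with the highest mean level stood for it in counts, and the other probes of a member are all given. A probe above background on 1 of 2 arrays gave a bound, and on neither no difference. The call was over 2-fold, with 5-fold as an alternative, which is 1 reading of the threshold in the methods of the study (the other is a log2 difference of 5). Conditions were taken from the sample labels, and no column of another sample was used.

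The members and gene lists were chosen with earlier results of these data known. The 5 pathway lists were gp130 cytokines, gp130 cytokine receptors, other JAKs and STATs, negative regulators and STAT3 targets in pluripotent cells. Named genes were all members with every probe, pathway genes past 2-fold in any comparison, genes not above background, and the 3 nearest patterns to Lifr, Il6st and Stat3 by distance over 2 differences. Stat5a, Stat6, Socs4, Tfcp2l1, Klf4 and Bcl2l1 were named outside this rule after their values were seen. Results of 2 pathway genes are not reported here, although the counts include them. Alternatives were normexp (limma 3.58.1, offset 50, on median spot and background intensity), quantile normalization, centring on the median or on the mean of 15 housekeeping genes, the authors' values, outlier spots kept, the mean over probes, and both a stricter and no filter on dim probes. The call step was run on copies of the young and aging arrays with small added noise and 200 probes moved by a known fold. That checks the calculation and not the variation between arrays. Python 3.11.15, NumPy 2.4.6, pandas 2.3.3, Matplotlib 3.10.9 and R 4.3.3 were used.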

Additional observations from a re-analysis of the deposited data

How the results depend on the processing

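No paired analysis was possible because there was 1 array per condition. No replicate could be left out either. Of the 42 differences of member probes, 39 kept their sign with normexp correction, 41 with housekeeping centring, 41 with the authors' values and 42 with quantile normalization, median centring or outlier spots kept. The member genes past 2-fold for aging against young (2) became 1 with the mean over probes (Lifr, higher, in place of Il6ra and Stat3) and 0 at 5-fold. For suppressed aging against aging (2) they became 0 with normexp correction and 0 at 5-fold, and for suppressed aging against young (4) they became 0 with normexp correction, 2 with the mean over probes and 0 at 5-fold. The median of the members for suppressed aging against aging, 0.52, became 0.28 with normexp correction and 0.0741 with the mean over probes. The pathway genes past 2-fold for aging against young (8) became 1 with normexp correction, 5 with only probes above background on both arrays, 5 with the mean over probes and 0 at 5-fold. For suppressed aging against aging (3) they became 6 without a filter on dim probes and 1 at 5-fold, and for suppressed aging against young (6) they became 3 with the mean over probes and 2 at 5-fold. With normexp correction, the offset of 50 by itself shrinks the differences of dim probes. The cause of the other changes was not tested. Dim probes limit the reading of Il6, Jak2 and the second Lifr probe, whose intensities ran from 11.0 to 57.6 after background subtraction. The median local background, from before that subtraction, was 29 to 39.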
